A study of Mus musculus with 8 samples.

Results

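Gained intragenic peaks are stretches of autosomal DNA that were open to transposase in *Arid1a* cKO pachytene spermatocytes, lay inside a protein-coding gene away from its starts, and shared no base with any peak of the *Arid1a* WT list. There were 4561 of them among the 30244 peaks of the cKO list, which was set against 19309 WT peaks. They were defined by overlap between the lists, by position on chromosomes 1 to 19, by a width under 5000 bp, and by a midpoint in a GENCODE gene body over 1000 bp from every annotated transcription start. Absence from the WT list is therefore the choice itself and not a result. Of all 28071 autosomal cKO peaks under 5000 bp, 12279 shared no base with a WT peak (43.7%), and of the 7031 that lay in gene bodies away from starts the 4561 gained peaks were 64.9%. The remaining 2470 are called shared intragenic peaks below, and a further 4623 gained peaks lay outside protein-coding genes and away from starts (gained intergenic peaks).

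Accessible chromatin was profiled by ATAC-seq, in which a transposase cuts exposed DNA and leaves sequencing adapters, in pachytene spermatocytes of adult mice purified by Sta-Put sedimentation. The *Arid1a* WT group (4 libraries) carried *Arid1a* fl/fl or fl/+ alleles without Cre, and the *Arid1a* cKO group (4 libraries) was *Arid1a* fl/fl; *Stra8-Cre* Tg/0, with males of a CD1 background pooled for each purification. *Stra8-Cre* is active from the spermatogonial stage and left part of the spermatocytes with ARID1A, so the cKO libraries mix mutant and escaper cells. The paper reports that cells without ARID1A arrest in mid-pachynema. The mix of stages can therefore differ between the groups, and such a difference cannot be told apart from genotype. Each genotype was available as 1 peak list, with no value per library, so no comparison below holds a spread between animals and the sequencing depth is unknown. In bulk libraries a site that is open in more cells and a site that is more open in each cell cannot be told apart.

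ARID1A is a DNA-binding subunit of the BAF form of SWI/SNF, a remodeler that uses ATP to slide or evict nucleosomes and so sets which DNA other proteins can reach. Spermatocytes in pachynema have paired their homologous chromosomes, repair meiotic breaks and transcribe a broad set of germ-line genes for later use. Accessible sites inside genes commonly include enhancers, unannotated promoters and transposon-derived sequence, and a peak list alone does not tell these apart.

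The sequences that recurred among the strongest gained intragenic peaks are shown first, all from the GRCm38.p6 reference genome, the build of mm10. Strength here is the −log10 q that the peak caller gave a peak, and a peak is of unique sequence when at least 50% of its 50-mers occur once in the genome. The first 4 are stretches of peaks that share a family of near-identical sequence (group 1, described below), namely the 3 strongest of unique sequence and the strongest with no unique 50-mer. They are *Fam117b* (chr1:59948156-59948355, forward strand), *Fry* (chr5:150249112-150249311, forward strand), *Rbl1* (chr2:157198334-157198533, reverse strand) and *R3hcc1l* (chr19:42557359-42557558, forward strand). Capitals mark ATTGG, the reverse complement of the CCAAT box bound by the trimeric factor NFY, and ATTTGCAT, the octamer bound by POU family factors.
Fam117b: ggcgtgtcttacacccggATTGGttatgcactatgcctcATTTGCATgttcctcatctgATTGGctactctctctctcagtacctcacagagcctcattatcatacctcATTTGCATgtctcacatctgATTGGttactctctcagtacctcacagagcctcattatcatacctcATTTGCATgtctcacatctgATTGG
Fry: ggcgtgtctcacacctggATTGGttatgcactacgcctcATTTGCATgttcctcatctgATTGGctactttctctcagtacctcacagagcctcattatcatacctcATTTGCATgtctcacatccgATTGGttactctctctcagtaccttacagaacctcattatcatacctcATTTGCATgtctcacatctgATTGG
Rbl1: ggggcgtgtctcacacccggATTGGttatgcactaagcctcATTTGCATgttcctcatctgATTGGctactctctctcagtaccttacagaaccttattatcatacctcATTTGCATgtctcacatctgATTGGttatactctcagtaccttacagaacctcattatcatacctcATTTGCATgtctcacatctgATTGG
R3hcc1l: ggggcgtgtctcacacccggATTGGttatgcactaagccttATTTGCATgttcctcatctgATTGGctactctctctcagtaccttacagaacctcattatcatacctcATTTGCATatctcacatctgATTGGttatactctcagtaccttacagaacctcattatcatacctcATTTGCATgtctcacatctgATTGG

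Each of these 4 stretches held 4 copies of ATTGG and 3 of the octamer in the same order, although they came from introns of different genes on 4 chromosomes. In these 4 peaks a stretch also matched itself at 91% to 100% after a shift of 66 or 68 bp. Outside group 1, a shorter unit was repeated head to tail at *Abca17* (chr17:24342799-24342930, forward strand) and *Ppp4r4* (chr12:103555139-103555274, forward strand). Capitals mark 1 unit, of 33 bp at *Abca17* and 34 bp at *Ppp4r4*.
Abca17: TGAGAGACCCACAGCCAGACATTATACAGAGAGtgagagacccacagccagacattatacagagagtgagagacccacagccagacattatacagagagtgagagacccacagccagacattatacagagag
Ppp4r4: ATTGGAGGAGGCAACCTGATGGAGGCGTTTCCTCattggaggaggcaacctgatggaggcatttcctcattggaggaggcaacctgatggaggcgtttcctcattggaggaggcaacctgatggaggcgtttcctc

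The last pair had neither feature and are shown as the strongest unique peaks with the NFY letters and the SP/KLF letters, at *Cntnap5b* (chr1:100180103-100180302, forward strand) and *Abcg1* (chr17:31073371-31073470, forward strand). Capitals mark CCAATCA in the first and GGGCGG, the GC box of SP and KLF zinc finger factors, in the second. The *Cntnap5b* stretch was not compared with full-length ribosomal RNA sequence, and although its 50-mers are unique in the assembly, the origin of its reads was not tested.
Cntnap5b: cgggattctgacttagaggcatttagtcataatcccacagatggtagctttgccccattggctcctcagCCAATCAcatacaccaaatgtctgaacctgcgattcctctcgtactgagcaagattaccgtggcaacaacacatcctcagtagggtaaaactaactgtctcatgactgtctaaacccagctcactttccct
Abcg1: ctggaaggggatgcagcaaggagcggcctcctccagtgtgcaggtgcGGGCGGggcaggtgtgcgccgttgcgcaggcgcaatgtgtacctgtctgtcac

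Most gained intragenic peaks were weak, and strength and width are given as a description with no test because they are not independent of the choice. Their median fold enrichment over the library background was 3.27 (quartiles, 2.95 and 3.76), against 5.24 for shared intragenic peaks. The median −log10 q was 4.24 (quartiles, 3.14 and 6.07) against 12.5. Median width was 497 bp against 1120.5 bp. The nearest WT peak lay a median of 11013 bp away, and 147 members (3.22%) had one within 500 bp. Each row of the list is an overlap with a peak of another replicate, and a peak can fill several rows against 1 library, so rows do not count libraries. By rows, 2394 members lay on 3 or more rows, 1184 on 2 and 983 on 1.

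By position, 3507 members were intronic (76.9%; 95% Wilson interval, 75.6 to 78.1), 559 lay in coding exons (12.3%), 417 in UTR exons (9.14%) and 78 in other exons (1.71%). The gained share was 64.7% of intronic cKO peaks (95% interval, 63.5 to 66.0), 62.1% of those in coding exons (58.9 to 65.2) and 69.7% of those in UTR exons (65.9 to 73.3). It was 61.4% outside genes and 22.9% within 1000 bp of a start. When each gene body was cut into 5 equal parts, the part at the end held 30.1% of members (28.8 to 31.4) and the part at the start 16.2% (15.2 to 17.3). For shared intragenic peaks these shares were 28.99% (27.2 to 30.8) and 15.6% (14.2 to 17.1). Both classes leave out peaks within 1000 bp of a start, so part of the contrast between start and end was fixed beforehand. RefSeq, an annotation that the choice did not use, placed a start within 1000 bp of 187 members (4.10%). Enhancers annotated by RefSeq overlapped 15 members (0.329%), beside 13 shared intragenic peaks (0.526%). Enhancers that RefSeq credits to VISTA overlapped 11 members (0.241%), beside 13 shared intragenic peaks (0.526%). In a UTR exon of *Ep400*, 1 member covered the hairpin of the miRNA gene *Mir7026*, beside 3 shared intragenic peaks with a hairpin.

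The limits of the choice separated close neighbours. At the distance limit, peaks in *Slx4* (−log10 q 6.07) and *L3mbtl2* (3.14) lay 1002 bp from a start and were kept, and peaks in *Ankrd27* (11.7) and *Arfgap3* (3.14) at 1000 bp were not. The widest members were 4426 bp in *Slc43a2* and 4277 bp in *Cherp*, and the only gained intragenic peak over the width limit spanned 9029 bp of *Nol4l*. Members in *Alkbh4* and *Phf2* came within 2 and 5 bp of a WT peak, and peaks in *Med26* and *Cdc23* shared 1 base with one and were left out. At the gene boundary, the peak at *Prr3* (0 bp from the end) and that at *Dusp8* (13 bp) were inside, and peaks 1 bp from *Prss39* and 13 bp from *Pcdh1* were outside.

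Compared with shared intragenic peaks, the gained intragenic peaks were poorer in GC, more often of unique sequence and poorer in GC boxes. These properties were read from a 200 bp window on each midpoint (uniqueness from the whole peak) and tested by an exact two-sided sign test over the 19 autosomes, with p-values adjusted by Benjamini-Hochberg over 21 measures. The test asks whether the difference had 1 direction on most chromosomes of the same lists and holds no variance between animals. Median GC content was 52.0% (95% order-statistic interval, 51.5 to 52.0) against 54.0% (54.0 to 54.5), and it was lower on 19 of 19 chromosomes, with differences of −4.5 to −0.5 percentage points (adjusted p = 4.01e-05, exact sign test). In a regular grid of 89567 windows over gene bodies the median was 43.0%, so members lay between that level and the shared peaks. When strength was held fixed over 10 bins of −log10 q the GC difference was −1.79 points, lower on 15 of 19 chromosomes (adjusted p = 0.0893, exact sign test), which did not pass.

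Of the members, 92.2% (91.4 to 92.9) were of unique sequence, against 79.3% (77.6 to 80.8) of shared intragenic peaks (higher on 19 of 19 chromosomes, adjusted p = 4.01e-05, exact sign test). Among peaks at or over a −log10 q of 10 the difference did not pass (3.14 points, adjusted p = 0.222, exact sign test). With strength held fixed it was 17.1 points, higher on 19 of 19 chromosomes (adjusted p = 8.01e-05, exact sign test). With head-to-tail repeats, described below, left out of both classes it was 4.84 points, higher on 16 of 19 chromosomes (adjusted p = 0.0232, exact sign test). GGGCGG stood in 7.81% of member windows (7.06 to 8.62) and 13.4% of shared windows (12.2 to 14.8), with 1.997% in the grid. It was rarer on 18 of 19 chromosomes, chromosome 13 being the exception (adjusted p = 0.000534, exact sign test). With strength held fixed it was rarer on 12 of 19 (−3.92 points, adjusted p = 0.444, exact sign test). The strongest unique member with these letters was the *Abcg1* peak shown above, in a gene for a sterol transporter.

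**Figure D1:**
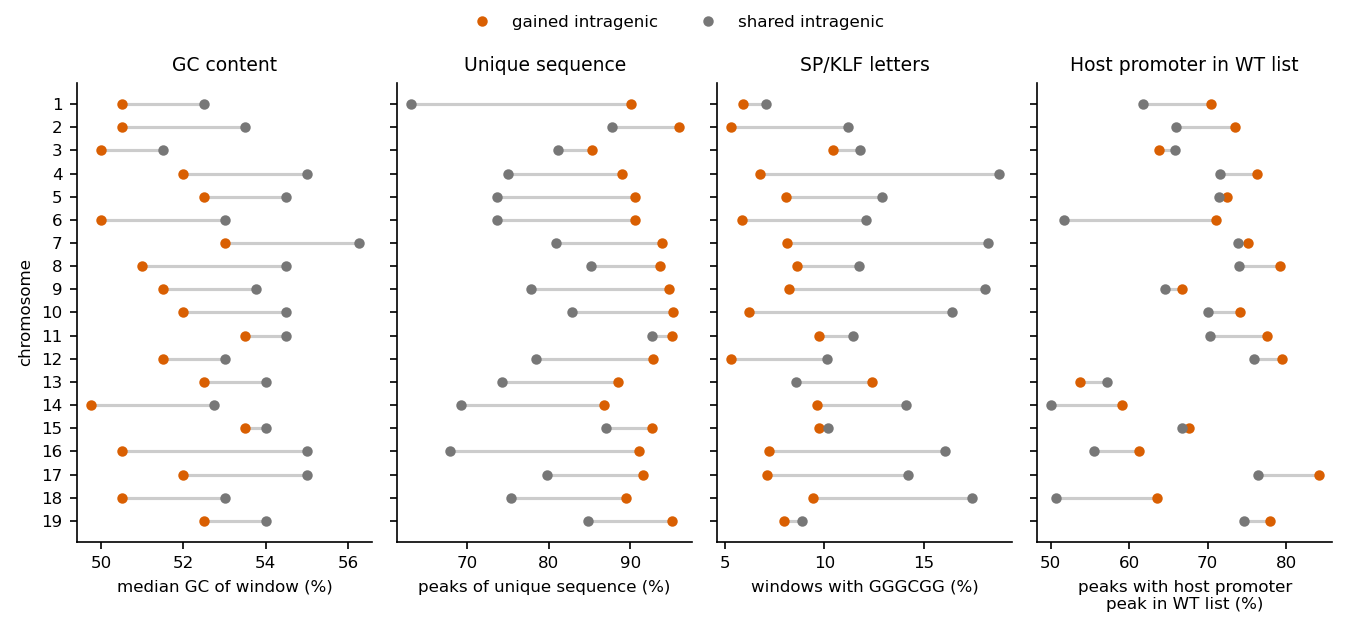
Median GC content (%), share of peaks of unique sequence (%), share of 200 bp windows with GGGCGG (%) and share of peaks whose host gene has a WT promoter peak (%) are plotted for each of the 19 autosomes, with gained intragenic peaks in orange and shared intragenic peaks in grey joined by a line. GC is lower and unique sequence higher for gained peaks on all 19 chromosomes, GGGCGG is lower on 18 and the promoter share higher on 17.

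Members lay more often than shared peaks in a gene with an accessible promoter in WT cells. These shares count peaks, so a gene with several peaks counts several times. A WT promoter peak, within 1000 bp of a start of the host gene, was present for 72.8% of members (71.5 to 74.0) and 67.6% of shared intragenic peaks (65.7 to 69.4), and the share was higher on 17 of 19 chromosomes (adjusted p = 0.00383, exact sign test). Members also lay closer to a start, at a median of 5909 bp (5628 to 6179) against 6537.5 bp (6229 to 6987), closer on 16 of 19 chromosomes (adjusted p = 0.0186, exact sign test). Both moved with peak strength. At or over a −log10 q of 10, members lay 2477.5 bp farther from a start (adjusted p = 0.0807, exact sign test). The promoter difference there was −6.14 points (adjusted p = 0.776, exact sign test), and with strength held fixed it was −0.21 points. None of these values passed. For 387 members (8.48%) the host promoter had a peak in the cKO list only, and for 855 (18.7%) in neither list.

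No difference passed the test for the share in exons (23.1% against 22.7%, and 7.44% in the grid), the share of intronic peaks in the first intron (27.5% against 27.8%), the soft-masked share of the window (the same median in both) or the length of the host gene (median 59354 against 66849 bp). The CpG ratio was 0.222 against 0.261 (lower on 15 of 19 chromosomes, adjusted p = 0.0504, exact sign test), and it passed for peaks of unique sequence (−0.058, adjusted p = 4.01e-05, exact sign test). Other letters were searched on both strands of the same windows. CCGGAAG, an ETS core, stood in 2.19% of members and 3.64% of shared peaks, and AGATAA, read by GATA factors, in 7.06% and 5.26% (each adjusted p = 0.0504, exact sign test); the grid had 0.585% and 12.8%. TGANTCA (AP-1) stood in 4.98% and 4.21%, TGACGTCA (CRE, read by CREB and CREM) in 0.373% and 0.405%, GCGCANGCG (NRF1) in 1.07% and 1.82%, CCGTTA (MYB, the family of the meiotic regulator MYBL1) in 1.25% and 1.42%, CAAGGTCA (NR5A) in 1.36% and 1.01% and CACGTG (E-box) in 3.81% and 4.45%. Their grid shares were 5.98%, 0.136%, 0.0904%, 0.978%, 1.17% and 2.33%. The CTCF and RFX motifs stood in 0.855% and 0.395% of members, 0.688% and 0.729% of shared peaks, and 0.114% and 0.0223% of the grid. None of these 8 differences passed. The strongest unique holders were at *Mtus2* (ETS), *Add3* (GATA), *Dgka* (AP-1), *Atxn1* (CRE), *Abcg1* (NRF1), *Syt5* (MYB), *Rasa4* (NR5A), *Sh3yl1* (E-box), *Cdyl2* (CTCF) and *Spink10* (RFX), and a match is only a description of the letters.

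Against gained intergenic peaks, which were chosen by the same absence from the WT list, the gained intragenic peaks were richer in GC, with a median 2.0 percentage points higher (higher on 17 of 19 chromosomes and tied on the other two; adjusted p = 6.48e-05 over 17 measures, exact sign test). They were also more often unique, with 92.2% against 85.6%, and less soft-masked, with a median difference of −4.5 points (each in 1 direction on 19 of 19 chromosomes, adjusted p = 2.16e-05, exact sign test). CCAATCA, the NFY letters, stood in 3.75% of members (3.24 to 4.34) and 8.46% of gained intergenic peaks (7.69 to 9.29), fewer on 18 of 19 chromosomes (adjusted p = 0.000259, exact sign test). With group 1, described below, left out, the shares were 2.52% and 3.64%, lower on 15 of 19 chromosomes (unadjusted p = 0.0192, exact sign test). Against shared intragenic peaks, at 4.57%, that share did not differ by the test (adjusted p = 0.686, exact sign test), and the grid had 2.21%.

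The NFY letters followed peak strength. They stood in 2.48% of members with a −log10 q up to 3, in 2.08% from 3 to 5, in 3.22% from 5 to 10, in 11.1% from 10 to 20 and in 34.1% (24.8 to 44.9; 28 of 82) over 20. At or over a −log10 q of 10, members exceeded shared intragenic peaks, with 15.5% against 6.69% (higher on 16 of 19 chromosomes, adjusted p = 0.0310, exact sign test). With the peaks of group 1 left out the shares were 5.71% and 5.08%, higher on 9 chromosomes and lower on 10. With group 1 included, the NFY letters rose more steeply among gained intergenic peaks than among members. The gained intergenic share was 2.81% at a −log10 q up to 3, 56.7% over 20 and 30.3% at or over 10.

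Group 1 was found by comparing the 14-mers of 400 bp windows between all autosomal cKO peaks, after the strong peaks had been seen to resemble each other, and is therefore described with no test. It held 614 autosomal cKO peaks, of which 411 were gained: 84 gained intragenic, 305 gained intergenic and the rest near starts. Of its 132 intragenic peaks away from starts 84 were gained (63.6%, beside 64.9% of all such peaks) and 48 were shared, so it made up 1.84% of members and 1.94% of shared intragenic peaks. Requiring 80 in place of 120 shared 14-mers gave 108 gained intragenic members, and requiring 160 gave 49. The 84 members lay in 82 host genes on 18 chromosomes, 83 of them in introns. Their median −log10 q was 14.5 (quartiles, 10.2 and 22.1) beside 4.24 for all other members, and their median width 453 bp. In the windows, 77 of 84 (91.7%; 83.8 to 95.9) held 3 or more CCAAT boxes, beside 2.88% (2.43 to 3.41) of other members, and 71 (84.5%; 75.3 to 90.7) held the octamer, beside 1.16% (0.887 to 1.52). Neighbouring ATTGG copies stood at a few fixed spacings, most often 24 bp (60 of 302), 41 bp (52), 92 bp (45) and 68 bp (38). For 47 of the 84, the 200 bp window on the midpoint was wholly soft-masked as repeats. Each 400 bp window was read on the strand with more ATTGG than CCAAT. So read, 19 (22.6%) ran on the strand opposite to the host gene. This orientation is a convention, and reading by CCAAT would give the other strand.

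The share of members in group 1 was 0.124% at a −log10 q up to 3, 0.149% from 3 to 5, 1.23% from 5 to 10, 10.6% from 10 to 20 and 32.9% (23.7 to 43.7; 27 of 82) over 20. Among shared intragenic peaks over 20 it was 4.53%, and among gained intergenic peaks 60.3%. Hosts of group 1 peaks included *Rbl1*, which encodes the retinoblastoma relative p107, *Fry*, a microtubule-binding protein, *Hfm1*, a helicase of meiotic crossover formation, and the adhesion genes *Ctnna3* and *Dscam*. The *Hfm1* peak (chr5:106920637-106920970, intron 2, −log10 q 28.6, fold enrichment 8.18) had no unique 50-mer. Reads from a repeat can match several copies, and the median member of group 1 had 47.5% unique 50-mers, 40 of 84 counted as unique sequence and 11 had no unique 50-mer. The part of read placement in the strength of these peaks was not tested.

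Most exact copies of the 20-mer commonest in group 1 members were not in a peak. This 20-mer was:
core: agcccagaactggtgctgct
This 20-mer stood in the 400 bp windows of 64 of the 84 members, and such a window can reach past the peak. The counts below are of copies that overlapped a peak itself. A copy need not carry the rest of the group 1 sequence. Over the autosomes it stood in 1921 separate stretches. Of these stretches 397 (20.7%; 18.9 to 22.5) lay in a cKO peak, 115 (5.99%; 5.01 to 7.14) in a WT peak and 53 in a gained intragenic peak, and 1517 (79.0%) lay in neither list.

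**Figure D2:**
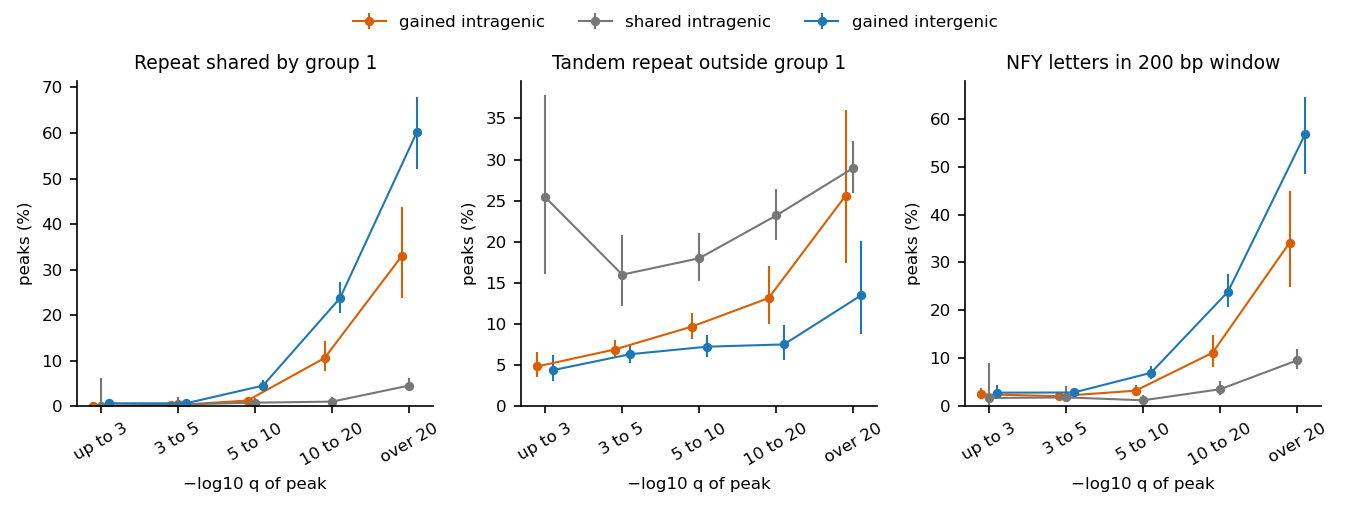
The share of peaks (%, with 95% Wilson intervals) that belong to group 1 (left), that hold a tandem repeat and are not in group 1 (middle) and whose 200 bp window holds the NFY letters (right) is plotted by −log10 q, for gained intragenic (orange), shared intragenic (grey) and gained intergenic peaks (blue). Over a −log10 q of 20 the gained intragenic shares reach 32.9%, 25.6% and 34.1%, and the shared intragenic peaks stay at 4.53% for group 1 and near or above the gained peaks for tandem repeats.

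Head-to-tail repeats were the other recurrent feature, and some group 1 peaks held them too. A stretch of 100 bases that matched itself at 80% or more after a shift of 6 to 100 bp was present in 396 members (8.68%; 7.90 to 9.53) and in 588 shared intragenic peaks (23.8%; 22.2 to 25.5), a measure added after the data were seen. The share was lower among members on 19 of 19 chromosomes. Outside group 1 there were 371 such members, with a median unit of 40 bp and a median −log10 q of 5.44, and 196 of them were of unique sequence. Their share rose from 4.83% (3.56 to 6.54) at a −log10 q up to 3 to 25.6% (17.4 to 36.0) over 20, where 21 of 82 members had a tandem repeat outside group 1, 27 belonged to group 1 and 34 had neither. A stricter identity of 90% left 343 members with a tandem repeat and 70% gave 471.

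The 15 strongest members on 3 or more rows and of unique sequence show the same mixture. Ranked by −log10 q, the first was in intron 3 of *Abca17* (chr17:24342593-24343058), a gene of the ABC transporter family, at 142 with a fold enrichment of 23.1. Its 33 bp unit was repeated with 100% identity. The second, at 113, was in intron 10 of *Cntnap5b* (chr1:100180107-100180414), a contactin-associated adhesion gene, 617541 bp from the nearest WT peak and in a gene with no promoter peak in either list, with the limit on its reads given above. The next was at 56.6 in intron 2 of *Ppp4r4*, a regulatory subunit gene of protein phosphatase 4. *Fam117b* (54.3), *Fry* (50.9) and *Rbl1* (49.8) followed, all of group 1.

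Below these, 4 further members had tandem repeats outside group 1. They were in *Enpp6* (46.4, unit 29 bp), a choline phosphodiesterase gene, *Sh3yl1* (46.4, 51 bp) and *Hip1* (42.0, 53 bp), whose product binds clathrin. The last was in *Add3* (34.6, 19 bp), which encodes an adducin of the membrane skeleton. *Sfta2* (39.9), the deubiquitinase gene *Otud7a* (37.7), *Abcg1* (35.6) and *Trim38* (33.6), a TRIM ubiquitin ligase gene, had neither feature, and *Tmem50a* (33.6) was of group 1. Of the 15 peaks 14 were intronic, and the *Otud7a* peak lay in a coding exon with 76.5% GC. RefSeq placed a start 286 bp from the *Sfta2* peak and 852 bp from the *Enpp6* peak. The host promoter had a WT peak in 11 of the 15.

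**Figure D3:**
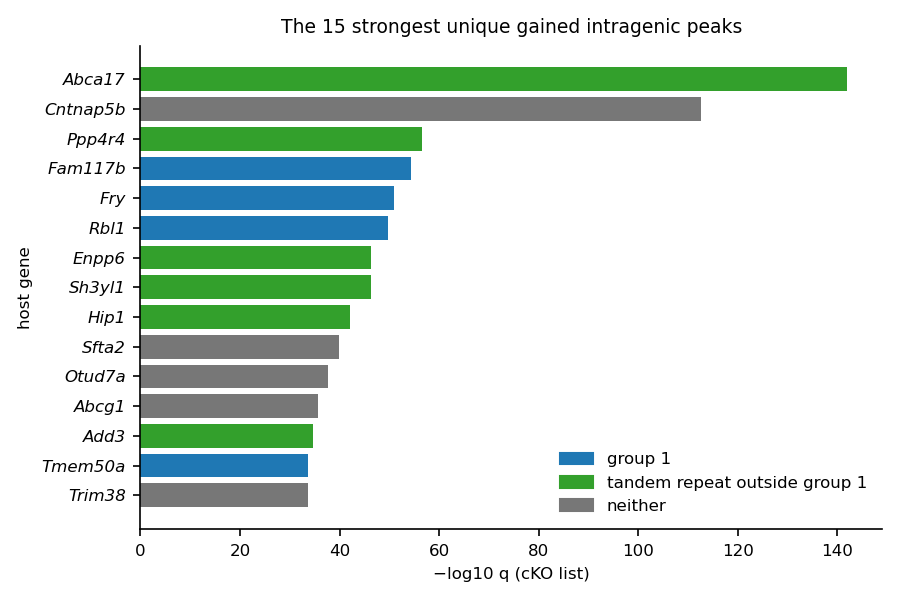
Bars give the −log10 q in the cKO list of the 15 strongest gained intragenic peaks on 3 or more rows and of unique sequence, by host gene, coloured by sequence feature. Group 1 accounts for 4 bars, tandem repeats outside group 1 for 6 and neither for 5, from 142 at *Abca17* down to 33.6 at *Trim38*.

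Gained intragenic peaks were spread over 3151 of 20807 autosomal protein-coding genes (15.1%). Of these genes 2252 held 1 member, 551 held 2, 264 held 3 or 4, 73 held 5 to 9 and 11 held 10 or more. The 84 genes with 5 or more were long, with a median body of 120073 bp against 43041 bp for all genes with a member and 17629 bp for all genes. A WT promoter peak was present at 70 of them (83.3%), beside 68.8% of genes with a member and 52.4% of all genes. Of the 84, 20 held no shared intragenic peak. Members also stood in runs: 447 (9.80%) belonged to 63 runs of 5 or more in which neighbours were at most 20000 bp apart, beside 30 shared intragenic peaks (1.21%) and 212 gained intergenic peaks (4.59%). The gained intragenic peaks are more numerous than the shared ones, and the part of peak number in this difference was not tested.

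By number of members, *Gm20388* came first with 58, but it is a read-through annotation of 4434882 bp on chromosome 8 with 71 other protein-coding genes wholly inside it, and 39 shared peaks lay there too. *Dnah14*, an axonemal dynein heavy chain gene, held 23 members and 5 shared peaks over 239216 bp. *Mllt10*, whose product is a cofactor of the H3K79 methyltransferase DOT1L, held 22 members and 2 shared peaks over 157152 bp. *Ccdc60* held 21 members and no shared peak over 164345 bp, with a median of 5220.5 bp between neighbours. All 3 genes had a promoter peak in both lists.

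*Mgll* (monoacylglycerol lipase) held 19 members, *Dnah17*, another dynein heavy chain gene of the sperm flagellum, 17, *Slc2a3* (glucose transporter GLUT3) 15, *Cacna1h* (a T-type calcium channel) 12, *Fam178b* 11, and *Camta1* and *Nol4l* 10 each. Per length the densest of these were *Slc2a3*, with 20.3 members per 100 kb, and *Cacna1h*, with 20.2, beside 9.61 in *Dnah14* and 1.06 in *Camta1*. The peaks in these runs were weak singly. Median −log10 q was 3.14 in *Dnah14* (1.68 to 14.1), 3.96 in *Mllt10* (2.14 to 10.2), 3.68 in *Ccdc60* (1.68 to 8.77) and 4.83 in *Slc2a3* (2.63 to 6.71). In *Dnah14* 8 of 23 members lay on 3 or more rows, and in *Slc2a3* 9 of 15. None of the members in *Dnah14*, *Mllt10*, *Ccdc60*, *Mgll*, *Dnah17* and *Slc2a3* was of group 1, and all were of unique sequence.

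**Figure D4:**
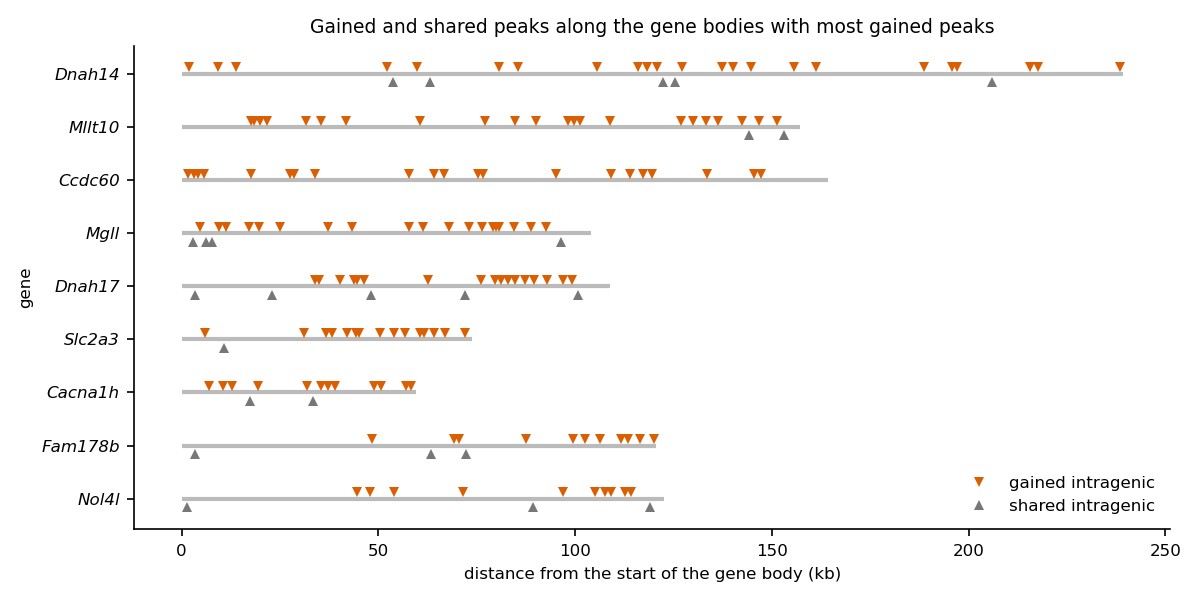
Gene bodies with the most gained intragenic peaks are drawn to scale from the start of the gene (distance in kb), with gained peaks as orange and shared intragenic peaks as grey triangles. *Ccdc60* has 21 gained and no shared peak, and *Dnah14* has 23 and 5. The longer genes *Gm20388* and *Camta1* are not drawn.

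Gene lists by function were compared by how many of their genes held a member and by members per Mb of gene body, beside 15.1% and 4.60 per Mb over all autosomal protein-coding genes, where shared intragenic peaks stood at 2.49 per Mb. Genes of the axoneme, the microtubule core of cilia and sperm tails, were highest per length: 25 of 52 held 106 members, or 17.6 per Mb, with 6.47 shared peaks per Mb. *Dnah14* and *Dnah17* together held 40 of the 106. The strongest were in the tektin gene *Tekt5* (−log10 q 14.9), in *Cfap43* (14.1), needed for sperm tail assembly, and in *Dnah14* (14.1). The counts and rates are descriptions with no test.

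Among genes of pachytene and meiotic prophase, 10 of 48 held 16 members, 6.84 per Mb with 5.56 shared peaks per Mb. They were *Hfm1*, the piRNA pathway genes *Tdrd1* (4 members, strongest −log10 q 8.07), *Piwil1* (2, 6.71), *Tdrd9* (2, 5.44), *Mael* and *Ddx4*, and *Adam3*, *Boll*, *Cntd1* and *Hormad2*. Of spermatid and sperm function genes, 11 of 43 held 25 members, 6.50 per Mb, led by the sperm calcium channel subunit gene *Catsperd* (3 members, 10.97), *Fsip1* (8.07), *Sox5* (8.07) and *Spag16* (6.07). Transcription factors of the pachytene program had 13 members in 5 of 19 genes, 10.05 per Mb: *Rfx2* held 5, *Rfx4* 4, *Tcfl5* 2 and *Zbtb16* and *Rfx1* 1 each. *Zbtb16* encodes PLZF, a marker of undifferentiated spermatogonia, and its member is counted again among the spermatogonial genes below.

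Among SWI/SNF subunit genes, 9 of 30 held 11 members, 5.27 per Mb beside 5.75 shared peaks per Mb. *Arid1b*, the paralog of the deleted gene, held 3 members (strongest −log10 q 4.24) and 3 shared peaks, and *Dpf3* (4.83), *Dpf1* (3.68) and the core subunit gene *Smarcb1* (3.68) held 1 each. Of the DNA damage response genes of meiotic silencing, 3 of 21 held 4 members, 4.30 per Mb: the kinase gene *Atm* had 1 in intron 14 (12.5), *Mdc1*, which spreads γH2A.X, had 2 (8.07), and the 9-1-1 clamp gene *Rad9a* had 1 (6.71).

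Lists of long genes ranked differently by gene and by length. Adhesion and synapse genes held a member in 39 of 58 genes, but with 82 members over 61.1 Mb they had 1.34 per Mb, and 24 of the 58 had a WT promoter peak. Their strongest were in *Cntnap5b*, whose reads carry the limit given above, *Ctnna3* (30.5), *Dscam* (29.5) and the axon guidance receptor gene *Robo1* (23.8). Ion channel genes had 59 members in 26 of 49 genes (4.07 per Mb), led by *Kcnh1* (23.8), *Kcnq5* (14.9), *Cacna1d* (10.97) and *Trpm1* (10.2). Collagen and matrix genes had 20 in 15 of 49 (2.66 per Mb), led by *Col15a1* (18.3), *Adamts16* (10.97), *Lama3* (7.38) and *Adamtsl1* (6.07). Over all genes, those with a WT promoter peak held 5.99 members per Mb and those without held 2.91.

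Markers of other testis cells were counted in the same way, since a sorted population can hold other cells. Promoter peaks in the WT and cKO lists were present at 45 and 46 of 48 pachytene genes, 10 and 15 of 22 spermatogonial genes, 7 and 10 of 18 Sertoli cell genes, 3 and 3 of 11 Leydig cell genes, 1 and 2 of 11 peritubular myoid and endothelial genes, and 0 and 1 of 9 immune cell genes. Gained intragenic members stood in 5 spermatogonial genes (*Zbtb16*, −log10 q 9.49, *Rarg*, *Gfra1*, *Tcf3* and *Nanos3*; 6 members), in the Sertoli genes *Tjp1* (10.97), *Gdnf* and *Kitl*, in the Leydig genes *Scarb1* and *Star* (3 members), once in *Pdgfra* and in no immune gene. The cKO list held more promoter peaks than the WT list for 4 of these 5 lists. Over all 20807 genes it also held more (12275 against 10912). Whether the rise in any list exceeded that over all genes was not tested. Members per Mb were 12.02 for Leydig (3 members), 5.79 for spermatogonial, 3.85 for Sertoli and 1.56 for myoid and endothelial genes, beside 4.60 over all genes. The shares of genes with a member were 18.2%, 22.7%, 16.7% and 9.09% in the same order, beside 15.1%. The part of other cells in the gained peaks was not tested.

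**Figure D5:**
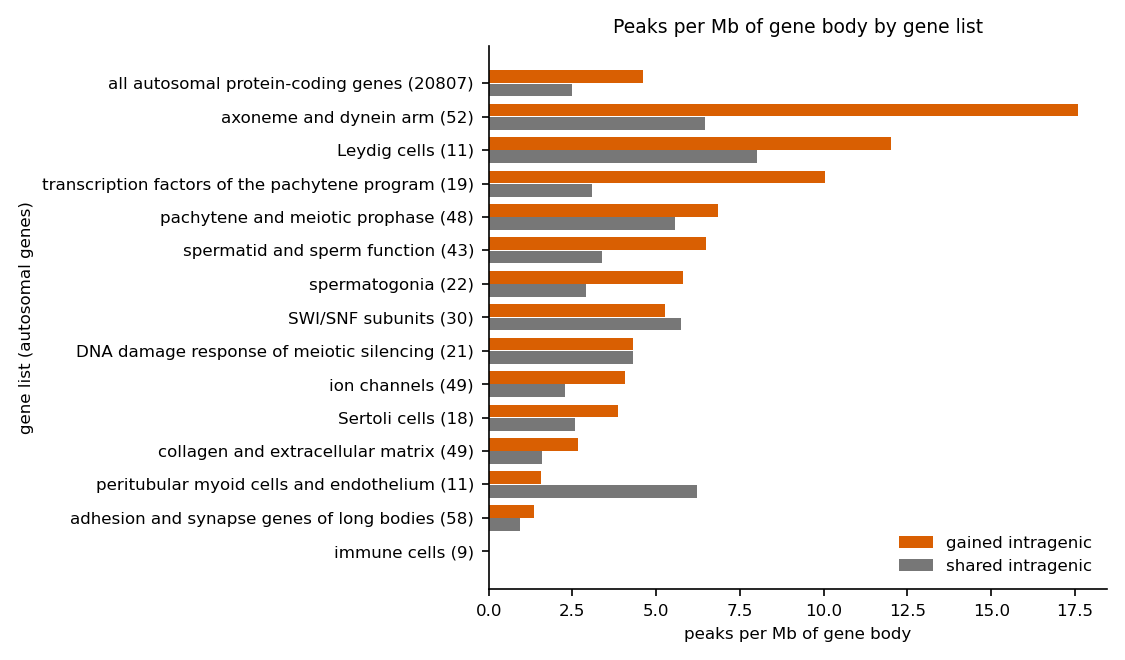
Bars give gained intragenic (orange) and shared intragenic peaks (grey) per Mb of gene body for each gene list, with the number of autosomal genes in brackets. The axoneme list reaches 17.6 gained peaks per Mb, all autosomal protein-coding genes 4.60 and the adhesion and synapse list 1.34, and the small lists of 9 to 22 genes rest on 0 to 13 members.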

How the data were processed

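Peaks came from 4 *Arid1a* WT and 4 *Arid1a* cKO ATAC-seq libraries. Per the labels and methods, the authors used Omni-ATAC on 100000 cells per library, aligned to mm10 with Bowtie2, removed duplicates with Picard, called peaks with MACS2 (q threshold 0.05, without local lambda), dropped blacklisted regions and kept, per genotype, the overlap of replicate peaks. Of the deposited columns used here, the fold enrichment is a ratio to library background and the −log10 q rates it. The authors' summit offset was added to the start of the collapsed peak. Collapsed peaks were as narrow as 1 bp, so a start can differ from that of the called peak and this summit is approximate. Windows for group 1 and tandem repeats were centred on it, or on the midpoint where it passed the peak end. Versions of Bowtie2, MACS2 and Picard for these libraries are not given in the sources used here. No mapping quality filter was stated. The deposited lists held 52419 WT and 84006 cKO rows, which were collapsed by peak name to 19309 and 30244 peaks. Values per library were not analysed here, so depth is unknown and no value has a replicate error. Which library named the peaks was not stated.

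GENCODE vM21 gave genes and starts, and GRCm38.p6 RefSeq gave sequence, soft-masking and enhancers. Windows of 200 bp were centred on midpoints, uniqueness used 50-mers every 25 bp, and the grid took a window every 10000 bp of gene body. Host genes were the longest over a midpoint. Group 1 joined peaks that shared at least 120 of the 387 14-mers in 400 bp windows. Shares have 95% Wilson intervals and medians order-statistic intervals, which cover counting error only. Differences were tested by exact two-sided sign tests over the 19 autosomes with Benjamini-Hochberg adjustment in each family and a threshold of 0.05, and the scripts were tested on simulated data. Python 3.11.15, numpy 2.4.6, pandas 2.3.3, scipy 1.17.1, matplotlib 3.10.9 and bedtools 2.31.1 were used. Alternatives changed the −log10 q minimum (5 or 10), the rows (3 or more), uniqueness, the distance to starts (3000 bp), the gap to WT peaks (500 bp), list length, window (400 bp or on the summit) and row merging, or held strength fixed. Leaving out group 1 or tandem repeats was added after seeing the data.

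Members, gene lists and motifs were chosen with earlier results of these data known, so no list is independent support. Named genes were hosts of the 15 strongest unique members on 3 or more rows, the 10 genes with most members (with ties), up to 4 hosts per list by strongest member, members nearest each limit, and the strongest unique holder of each motif. Genes beyond this rule, the hosts of group 1 and all hosts of short lists among them, were named after their values were seen. The result of 1 further gene list is not reported here.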

Additional observations from a re-analysis of the deposited data

How the results depend on the processing

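No paired analysis was possible because each genotype has 1 peak list with no value per replicate, and for the same reason no replicate could be left out. The 4561 gained intragenic peaks became 1736 at a −log10 q of at least 5, 432 at 10, 2394 on 3 or more rows and 1065 with equal list lengths, where the weakest cKO peaks were dropped. Values below are members minus shared intragenic peaks, with adjusted p-values of exact sign tests.

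With strength held fixed, by the exact sign test GC content (−1.79 points, p = 0.0893) and distance to start (−316 bp, p = 0.0893) no longer passed, and the host promoter share turned to −0.21 points. At a −log10 q of at least 5, distance turned to 505.5 bp and the promoter share to −0.83 points. In the exact tests at 10 they were 2477.5 bp and −6.14 points, the soft-masked share passed (3.5 points, p = 0.0310), unique sequence did not (3.14 points, p = 0.222), and the NFY share turned to 8.82 points (p = 0.0310). With group 1 also left out at 10, GC content (−2.75 points) and unique sequence (9.59 points) did not pass (each exact p = 0.0791), and distance (2058 bp) and promoter share (−7.07 points) stayed turned. With equal list lengths distance was 1250.0 bp and promoter share −2.64 points. None of the turned values of distance and promoter share passed the exact sign test. On 3 or more rows distance (−484.5 bp) and promoter share (3.15 points) did not pass, nor did distance for unique sequence (−116 bp) or over 3000 bp from starts (−998.5 bp). The CpG ratio passed for unique sequence (−0.058), on the summit (−0.067) and without tandem repeats (−0.090), where distance (−475 bp) and promoter share (6.59 points) did not. Restricting to unique sequence gives no value for the unique share itself. The causes were not tested, and stricter settings hold fewer peaks per chromosome. ETS letters passed in 400 bp windows and on the summit, and NRF1 and GATA letters on the summit. GGGCGG lost its call at a −log10 q of at least 5 or 10, on 3 or more rows, with equal list lengths and with strength held fixed, always with a lower share among members, by between −5.16 and −3.58 points.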
